A study of Mus musculus with 24 samples.

Results

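Total RNA left in the supernatant after fixation, bead incubation and pull-down was compared with total RNA of fresh whole brain, on 12 of the 24 expression arrays of the series. The arrays were taken by title: the 4 supernatants, numbered 13, 14, 15 and 16, and 8 whole brains. The question was which transcripts were lost from total RNA, which were kept and which read higher after the procedure that isolates RNA of Homer1a-expressing cells. The other 12 arrays hold the pulled-down RNA and are not described here.

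All mice were males of about 12 weeks, taken 6 h after light onset (ZT6). Whole-brain mice had either been kept awake by gentle handling for 6 h (sleep-deprived, 4 arrays) or left undisturbed (4 arrays), were killed by cervical dislocation, and gave DNase-treated total RNA from unfixed tissue. For the supernatants the labels describe anaesthesia with pentobarbital, perfusion with heparin in buffered saline, then with 1% formaldehyde, and then with glycine, Tris and saline. The brains were homogenised in a buffer with a mild detergent (NP40), large debris was spun out, the extract was kept overnight with anti-FLAG beads, and total RNA was extracted from what the beads left. Reversal of the cross-links is described for the beads, and amplification for immunoprecipitated RNA. Whether either was done for the supernatants, which strain and transgene the mice carried, and whether whole-brain mice carried the FLAG-tagged protein are not given in the sources used here. Supernatants 14 and 15 are labelled sleep-deprived and 16 control. The title and the source field of 13 disagree on its sleep condition, so all 4 supernatants formed 1 group. The source field calls them Homer1a-negative cells. Homer1 probe sets gave signal in them (below), but which Homer1 form each detects is not given, so this label cannot be judged here. The pull-down, the spin, the fixation and the perfusion cannot be told apart in this comparison.

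Homer1a is the short form of a postsynaptic scaffold protein, made from the Homer1 gene when neurons are strongly active. In mRNA tagging, a tagged poly(A)-binding protein holds the polyadenylated RNA of chosen cells, formaldehyde fixes the protein to the RNA, and beads draw both out of the extract. Perfusion washes blood from the vessels. A brain extract cleared by a spin keeps what is soluble in the detergent, while nuclei, myelin and strands of vessel wall can go with the debris.

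Values are log2 array intensities of probe sets, and a probe set is a group of short probes against 1 stretch of a transcript. The deposited values were normalized by RMA, which normalizes quantiles. Lost, kept and higher are therefore relative to the other probe sets, and amounts of RNA were not measured. Probe levels are not compared between genes. Supernatant values are given in the order 13, 14, 15, 16, and whole-brain values as the lowest, the median and the highest of 8 arrays. A difference is supernatant minus whole brain, the latter as the mean of its sleep-deprived and undisturbed groups, ± SE from limma, with the p adjusted over all 45037 probe sets. A probe set or gene was called lower or higher at an adjusted p under 0.05. It was kept when the 95% interval of its difference lay within 0.5 log2 units on either side of 0. Calls and kept status were set independently, so counts of lower, higher and kept can overlap. Histone probe set 1430181_at (H1f7), for example, was called higher by 0.28 and was also kept. In a table of genes, each of 18193 genes had 1 probe set. Total RNA per cell and the number of cells of a type cannot be told apart in such bulk samples.

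The arrays read as brain. Pan-neuronal genes averaged 10.3 to 10.6 over the list in the 4 supernatants and 10.9 to 11.1 in the 8 whole brains, and astrocyte genes 9.30 to 9.49 and 9.64 to 9.77. Genes of other tissues, a background of 18 genes, averaged 5.33 to 5.51 and 5.15 to 5.53. Supernatants correlated with each other at r = 0.964 to 0.981 across probe sets, whole brains at 0.984 to 0.991, and supernatants with whole brains at 0.939 to 0.963. Array medians were 6.15 ± 0.05 (SD, n = 4) and 6.13 ± 0.07 (n = 8). The 18S ribosomal RNA control read 14.29 ± 0.09 against 13.85 ± 0.05 (difference 0.44), the 3′ minus 5′ difference of Actb fell by 0.35 and that of Gapdh by 0.32, and the Bacillus spike-in controls read 9.35 ± 0.26 against 8.12 ± 0.27 (difference 1.23). By exact two-sided permutation of arrays, adjusted over 12 such measures, 18S, Actb and the spike-ins each had p = 0.00970 and Gapdh p = 0.0162. The controls for the B1 repeat (difference 0.63), for hybridization (0.17) and TrpnX (0.16) were also higher, with p = 0.00970, 0.00970 and 0.0416 by the same exact permutation test, and the smallest exact p that 4 against 8 arrays can give is 0.00404 before adjustment. The median difference over probe sets minus that of the spike-ins was −1.20. Set against the spike-ins, the typical probe set would thus read lower in the supernatants. The part of these shifts in the results below was not tested.

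Of 45037 probe sets, 8799 (19.5%) were lower in the supernatants, 7903 (17.5%) higher, and 18124 (40.2%) kept. Losses were larger than gains: 1908 probe sets (4.24%) were at least 2-fold lower and 343 (0.762%) at least 2-fold higher. Among genes, 3932 (21.6%) were lower, 3004 (16.5%) higher and 7591 (41.7%) kept, 859 (4.72%) were at least 2-fold lower and 120 (0.660%) at least 2-fold higher. The median difference over all genes was 0.02. Against both whole-brain groups separately, 6512 probe sets (14.5%) were lower and 4533 (10.1%) higher. Without overlap between supernatants and whole brains, 5582 probe sets (12.4%) were lower and 3895 (8.65%) higher. Among genes these were 2635 (14.5%) and 1569 (8.62%). Called genes named below were mostly picked by the size of their difference, so their lack of overlap is a description. With quantile normalization over the 12 arrays, 8174 probe sets were lower and 9160 higher, and 1537 were at least 2-fold lower and 649 at least 2-fold higher, so the side with more calls turned, while the larger differences remained more often losses. A fit of all 24 arrays, in which the spread of the pull-downs enters, left the differences as they were and called fewer genes: 1861 (10.2%) were lower and 275 (1.51%) higher. Counts of gene lists from this 24-array fit are given below beside those of the 12 arrays, and medians are the same in both.

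The share of losses rose with the level of the gene. Of 7267 genes with a mean under 6, near the level of genes of other tissues, 6.39% were lower, 12.0% higher and 57.3% kept. Of 6558 genes with a mean of 6 to 8, 24.2% were lower, 19.2% higher and 35.3% kept. Of 3434 genes at 8 to 10, 42.3% were lower, 20.0% higher and 25.6% kept, and of 934 genes at 10 and over, 45.7%, 20.4% and 24.9%. The median difference was −0.19 at 8 to 10 and −0.26 at 10 and over. Quantile normalization brought these medians to −0.05 and −0.06 and the shares to 35.1% lower and 28.0% higher at 8 to 10, and 36.0% and 30.4% at 10 and over.

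**Figure D1:**
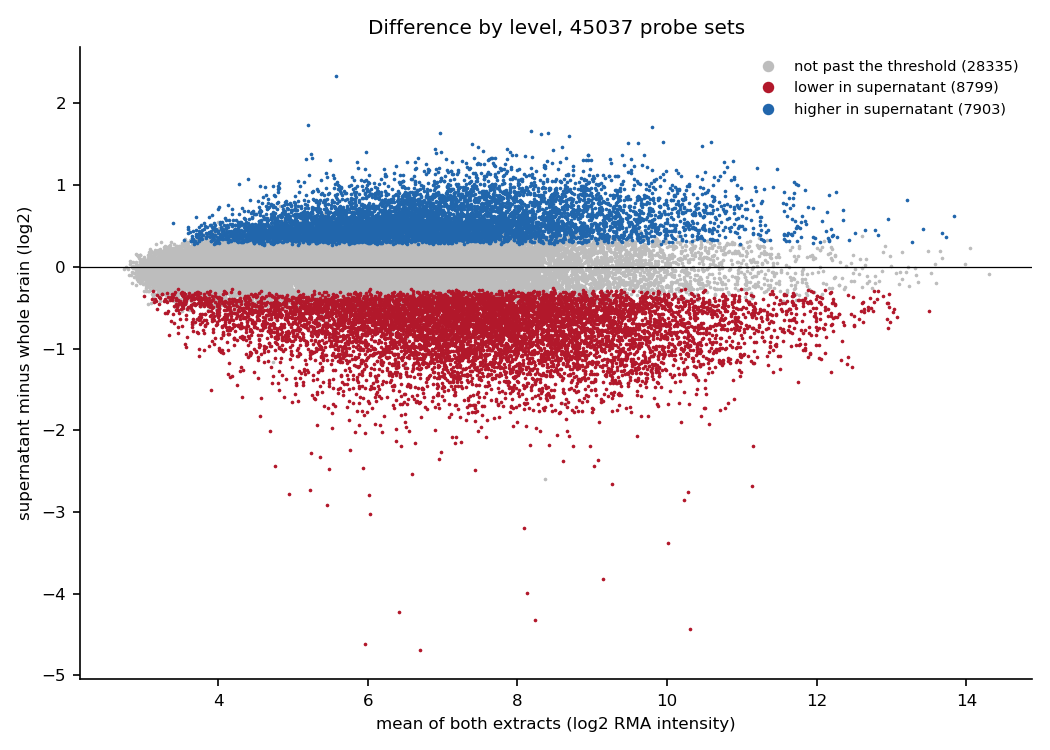
Each point is 1 of 45037 probe sets, with its mean log2 RMA intensity in both extracts on the x axis and the log2 difference, supernatant minus whole brain, on the y axis, and colours mark probe sets called lower or higher by limma. The lower calls reach farther from 0 than the higher calls, with 1908 probe sets at least 2-fold lower and 343 at least 2-fold higher.

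Haemoglobin transcripts were among those that fell most. A beta-globin probe set annotated to Hbb-bt, Hbb-bs, Hbb-b2 and Hbb-b1, the oxygen carriers of adult red cells, read 7.53, 7.90, 9.35 and 7.60 in the supernatants and 12.10, 12.59 and 12.90 in whole brain, a difference of −4.44 ± 0.26 (adjusted p = 6.00e-09). The alpha-globin probe set 1452757_s_at (Hba-a1 and Hba-a2) differed by −3.82 ± 0.31, and 2 others by −3.38 ± 0.28 and −2.48 ± 0.24. Hbb-b2 by its own probe set read 6.05, 6.75, 7.21 and 5.97 in the supernatants and 9.44, 9.73 and 9.85 in whole brain, a difference of −3.20 ± 0.18 (adjusted p = 6.00e-09). In none of these probe sets did the groups overlap, and the highest supernatant was 15 in each. The annotation gives the beta-globin and alpha-globin probe sets to several near-identical genes, and whether 1427865_at separates Hbb-b2 from its relatives was not tested. A further Hbb-b2 probe set, 1427866_x_at, was near the lowest levels of the array in both extracts (means 3.55 and 3.68) and was kept. Alas2, the haem synthesis enzyme of red cell precursors, read 5.65, 5.61, 6.18 and 5.96 in the supernatants and 6.12, 6.45 and 6.65 in whole brain, and fell by 0.57 ± 0.13 with overlap (adjusted p = 0.00238). The list of 9 erythroid genes had 2 lower, 0 higher and 6 kept, and 7 of the 9 had a mean under 6. Slc4a1, the anion exchanger of the red cell membrane (5.72, 5.29, 5.18 and 5.19 against 5.01, 5.25 and 5.63), was at background level in whole brain as well. Of 16 genes of white cells and platelets, with list means of 5.16 to 5.23 in supernatants and 5.00 to 5.35 in whole brain, 2 were lower, 1 higher and 10 kept.

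Of the vessel wall lists, endothelium and pericytes had genes called lower, while the 7 measured smooth muscle genes had none. Of 19 genes of endothelium and pericytes, 12 were lower, 1 higher and 2 kept, with a median difference of −0.70, beside 21.6% lower and a median of 0.02 over all genes. The 24-array fit called 9 lower and 0 higher, beside 10.2% and 1.51%. Over all their probe sets, 23 of 32 were lower and 1 higher, and no gene had probe sets called in both directions. Rgs5, a pericyte regulator of G protein signalling, read 7.49, 7.93, 8.81 and 7.49 in the supernatants and 9.59, 9.62 and 9.88 in whole brain, a difference of −1.72 ± 0.19 (adjusted p = 2.02e-06). Flt1, a receptor for vascular endothelial growth factor, read 7.10, 6.09, 6.58 and 6.05 in the supernatants and 7.66, 7.77 and 7.92 in whole brain, and differed by −1.32 ± 0.16 (adjusted p = 6.29e-06). Cldn5, the tight junction protein of the blood-brain barrier, read 6.20, 6.32, 6.91 and 6.14 in the supernatants and 7.22, 7.56 and 7.87 in whole brain, and differed by −1.15 ± 0.15 (adjusted p = 1.35e-05). No supernatant reached the lowest whole brain for these 3 genes. Tek, the angiopoietin receptor, differed by −1.11 ± 0.23 (adjusted p = 0.000842), without overlap. Abcb1a, a drug efflux pump of the barrier, Slco1a4 and Slco1c1, its organic anion and thyroid hormone transporters, and Vtn, a pericyte-secreted adhesion protein, differed by −1.05, −0.97, −0.94 and −0.78. Pecam1, an endothelial adhesion molecule, was kept at 6.01, 5.97, 6.12 and 6.11 against 5.59, 5.98 and 6.24. Ndufa4l2, a pericyte-enriched mitochondrial protein, was higher by 0.43. A further probe set of Flt1 (1454037_a_at) differed by −0.39 and did not pass the test (adjusted p = 0.114), but did without supernatant 13 (−0.56, adjusted p = 0.0385). Smooth muscle genes had 0 of 7 lower and 4 kept, among them Tagln, an actin-binding protein, at 6.50, 6.72, 6.95 and 6.58 against 6.60, 6.88 and 7.05. Their median level was 6.04, with 3 of the 7 under 6, and 1 of their 11 probe sets was lower. The median difference of −0.07 was −0.35 over those with a mean of at least 6. Whether the vessel lists differ from each other was not tested.

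Of 15 genes of the meninges, 7 (46.7%) were lower, 0 higher and 5 kept (median −0.32), and 12 of 30 probe sets were lower with none higher. Their median level was 6.82, and of all genes at 6 to 8 24.2% were lower. Only 2 were lower in the 24-array fit, and the median was −0.20 with the mean of all probe sets of a gene. Mgp, an inhibitor of calcification made by perivascular and meningeal cells, read 7.08, 7.21, 7.83 and 7.18 in the supernatants and 8.81, 9.09 and 9.28 in whole brain, a difference of −1.76 ± 0.14 (adjusted p = 8.88e-08), without overlap. Bgn, a small proteoglycan, read 6.30, 5.87, 7.19 and 5.87 in the supernatants and 6.77, 7.05 and 7.43 in whole brain (−0.77 ± 0.20, adjusted p = 0.00639), with supernatant 15 inside the whole-brain range. Col1a2, the second chain of type I collagen, and Igf2, a growth factor of meninges and choroid plexus, differed by −0.63 ± 0.16 (adjusted p = 0.00501) and −0.62 ± 0.16 (adjusted p = 0.00472), each with overlap. Col1a1, the first chain, was kept at 7.31, 7.34, 7.60 and 7.03 against 7.14, 7.53 and 7.76. In a fit of all 24 arrays the calls of Alas2, Col1a2 and Igf2 were lost (adjusted p 0.145, 0.253 and 0.266).

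Of 14 choroid plexus genes 3 were lower, 0 higher and 8 kept (median −0.02). The abundant member was Ttr, the thyroid hormone carrier secreted by the plexus. Its probe set 1454608_x_at read 11.67, 11.43, 12.54 and 11.80 in the supernatants and 12.93, 13.08 and 13.32 in whole brain, a difference of −1.23 ± 0.16 (adjusted p = 1.14e-05), and its 4 probe sets lay between −1.25 and −1.13. In supernatant 15 each read highest, and 1 probe set (1451580_a_at) overlapped there, at 11.32 against a whole-brain low of 11.31. Most other members had a mean under 7 in both extracts, near the level of genes of other tissues.

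**Figure D2:**
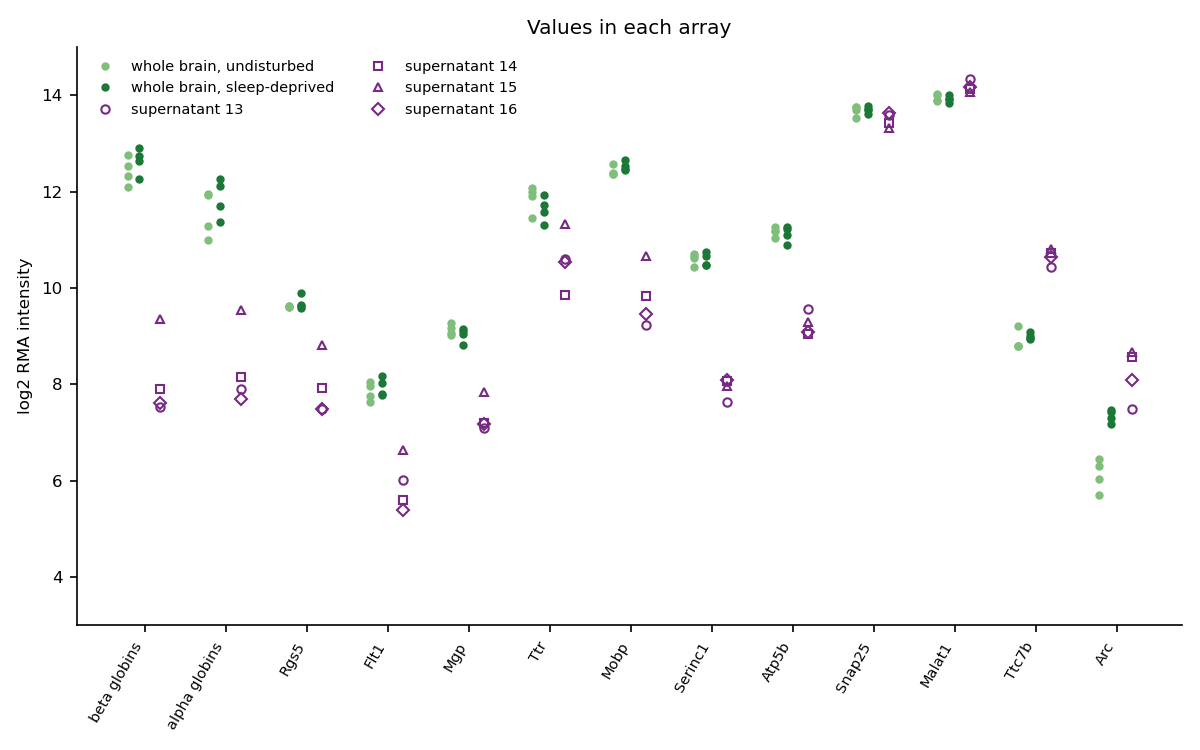
Log2 RMA intensity (y axis) of 1 probe set per gene or gene group (x axis) on each of the 12 arrays: filled points are whole brains, undisturbed or sleep-deprived, and open symbols the 4 supernatants. Globins, Rgs5, Flt1 (1440926_at), Mgp, Mobp, Serinc1 and Atp5b read lower in all 4 supernatants than in any whole brain, Snap25 overlaps, and Ttc7b and Arc read higher.

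The largest losses and gains were named by a rule: 12 genes each way with the largest difference, no overlap, a mean of at least 7 in the higher group and 1 symbol. Besides Hbb-b2, the losses were Orly, Mobp, Serinc1, Zfp367, Ahnak, Atp6ap2, Tenm1, Nap1l2, Bcas1, Tfrc and Megf9, between −3.02 and −2.19. Mobp, a structural protein of compact myelin whose mRNA is transported into the myelin sheath, read 9.23, 9.84, 10.66 and 9.45 in the supernatants and 12.37, 12.46 and 12.66 in whole brain, a difference of −2.68 ± 0.19 (adjusted p = 3.43e-08). Serinc1, a membrane protein of the serine incorporator family, read 7.64, 8.07, 7.96 and 8.09 in the supernatants and 10.42, 10.64 and 10.75 in whole brain, and differed by −2.66 ± 0.12 (adjusted p = 6.00e-10). Atp6ap2, an accessory subunit of the proton pump, read 7.72, 7.93, 7.93 and 7.97 in the supernatants and 10.10, 10.26 and 10.41 in whole brain, and differed by −2.37 ± 0.11 (adjusted p = 6.00e-10). The supernatants lay more than 2 units under the lowest whole brain for Serinc1 and Atp6ap2. Ahnak, a giant scaffold protein, and Tfrc, the transferrin receptor with which barrier vessels and neurons take up iron, differed by −2.44 ± 0.14 (adjusted p = 6.00e-09) and −2.19 ± 0.13 (adjusted p = 8.44e-09). Bcas1, a protein of myelinating oligodendrocytes, differed by −2.19 ± 0.12 (adjusted p = 3.24e-09). Orly, a Y-linked RNA, spread in whole brain from 6.25 to 8.61 and read 4.69, 4.54, 4.90 and 3.92 in the supernatants.

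The gains named by this rule were smaller, from 1.43 to 1.71. Ttc7b, a subunit of the complex that brings phosphatidylinositol 4-kinase to the plasma membrane, read 10.44, 10.73, 10.81 and 10.63 in the supernatants and 8.79, 8.94 and 9.20 in whole brain, a difference of 1.71 ± 0.12 (adjusted p = 2.50e-08). Jakmip1, a microtubule-associated protein of neurons, read 8.85, 9.01, 9.25 and 8.95 in the supernatants and 6.97, 7.42 and 7.45 in whole brain (1.67 ± 0.12, adjusted p = 5.21e-08). Gnb1, the beta subunit of heterotrimeric G proteins, read 11.16, 11.25, 11.32 and 11.09 in the supernatants and 9.53, 9.67 and 10.11 in whole brain (1.49 ± 0.12, adjusted p = 1.03e-07). For these 3 genes each supernatant was above each whole brain by about 1 unit or more. The others were Mrps5 of the mitochondrial ribosome, the ubiquitin-conjugating enzyme Ube2h, the RNA-binding protein Habp4, the membrane-bending protein Fnbp1, the prenyltransferase subunit Ptar1, the GABA-A receptor subunit Gabrb2, the tyrosine phosphatase Ptprn2 of dense-core vesicles, the kinase Csnk1d, which phosphorylates clock proteins, and Arc.

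Other probe sets of these genes often read differently. The genes of the 12 losses had 23 other probe sets, of which 6 were lower, 5 higher and 9 kept. Of Serinc1's 3 others, 2 were higher and 1 kept (from −0.12 to 0.54). The 3 others of Ahnak were kept (from −0.18 to 0.07), as were both others of Tfrc (0.06 and 0.08). Both others of Atp6ap2 were lower, by 0.63 and 0.62, and Mobp had others from −0.92 to 0.75. The genes of the 12 gains had 29 others, of which 6 were lower, 12 higher and 11 kept. For Ptar1 the 3 others were higher as well (0.33 to 1.19), while both others of Gnb1 were kept (0.06 and 0.10) and 3 of the 4 others of Csnk1d were lower (down to −1.11).

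Such splits were counted over the whole array. Of 9010 genes with several probe sets, 1784 (19.8%) had at least 1 called lower and at least 1 called higher, 811 had 2 or more lower and none higher, and 587 had 2 or more higher and none lower. The SD of the difference among probe sets of 1 gene was 0.506, against 0.518 over all these probe sets and a typical SE of 0.145. Variation within genes made up 95.3% of the variance of the difference between extracts, and 76.7% in sleep-deprived minus undisturbed whole brain, 2 groups of the same extract. Among 2981 genes with probe sets at 7 or more in the higher group, 888 (29.8%) went both ways. Leaving out single arrays gave 1412 to 1808 genes that went both ways (1412 without supernatant 13), and a fit of all 24 arrays gave 172.

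Gja1, the connexin 43 of astrocyte gap junctions, shows this within 1 gene. Probe set 1437992_x_at read 9.47, 10.17, 10.34 and 9.95 in the supernatants and 11.51, 11.63 and 11.77 in whole brain, a difference of −1.66 ± 0.14 (adjusted p = 1.52e-07), and 4 others differed by −1.73 to −0.99. Probe set 1415801_at read 8.39, 8.58, 8.46 and 8.05 in the supernatants and 7.16, 7.36 and 7.74 in whole brain, a difference of 0.95 ± 0.14 (adjusted p = 4.45e-05). Both directions were without overlap. Meg3, a maternally expressed long noncoding RNA of neuronal nuclei, had 11 probe sets: 1452183_a_at differed by −1.23 ± 0.13 (adjusted p = 1.00e-06), 1429257_at by 1.12 ± 0.11 (adjusted p = 6.14e-07) and 1436713_s_at by 0.97 ± 0.15 (adjusted p = 9.53e-05), while 1428764_at was kept at 13.25, 13.17, 12.98 and 13.48 in the supernatants and 13.09, 13.25 and 13.33 in whole brain. Probe set 1428765_at fell, at 9.09, 8.88, 9.42 and 9.15 in the supernatants and 9.97, 10.14 and 10.31 in whole brain (adjusted p = 5.75e-06). In a fit of all 24 arrays, 1428765_at passed the test and 1452183_a_at, 1429257_at and 1436713_s_at did not (adjusted p 0.0718, 0.267 and 0.110). Probe set 1452905_at differed by −0.26 (adjusted p = 0.155) and by −0.42 without supernatant 16 (adjusted p = 0.0183).

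**Figure D3:**
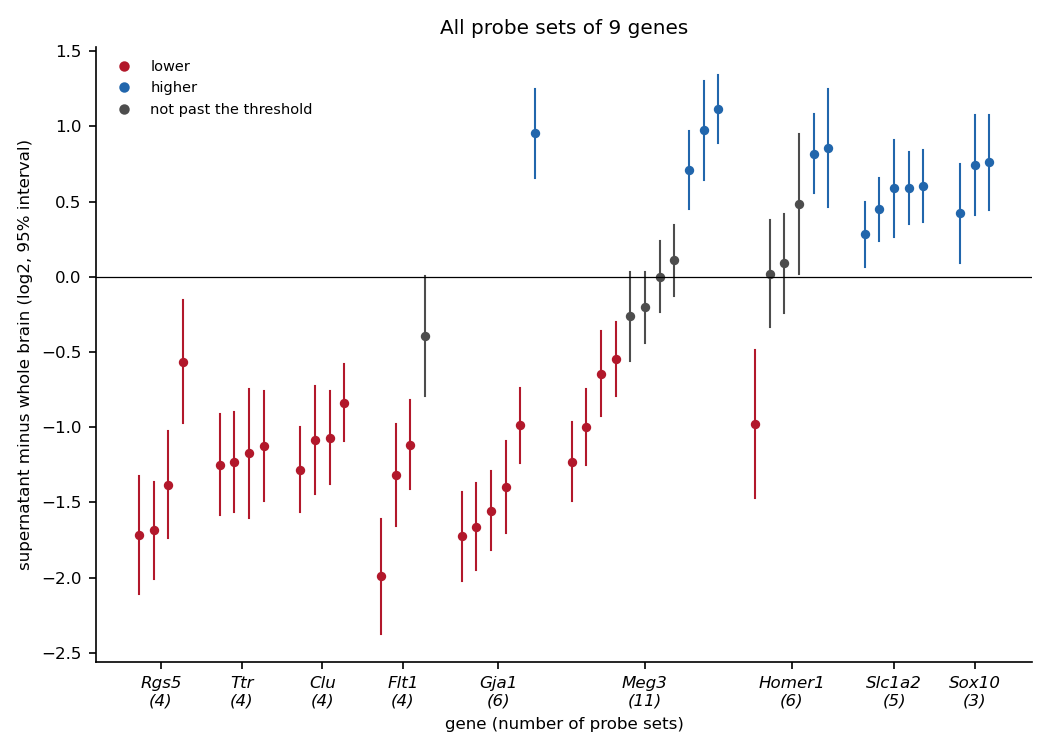
Each point is 1 probe set of a gene, placed on the y axis at its log2 difference, supernatant minus whole brain, with its 95% interval as a bar, for 9 genes along the x axis with the number of probe sets of each. Gja1, Meg3 and Homer1 have probe sets on both sides of 0, while the 4 probe sets each of Rgs5, Ttr and Clu lie below 0 and the 5 of Slc1a2 above it.

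Genes whose probe sets all went 1 way were few. Of 4315 genes with at least 3 probe sets, all were lower in 66 (1.53%), all higher in 39 (0.904%) and all kept in 191 (4.43%), and 1317 (30.5%) went both ways. Among those all lower were Rgs5 (median −1.53 over 4), Ttr (−1.20), the glycolytic enzymes Tpi1 (−1.14 over 3) and Pgk1 (−0.98 over 3), Atp6v1d of the proton pump (−1.13), the chromatin reader Morc3 (−1.46), the amino-terminal acetyltransferase Naa50 (−1.28) and Clu (−1.08 over 4), a chaperone secreted by astrocytes. Clu by 1454849_x_at read 10.30, 11.14, 10.91 and 10.75 in the supernatants and 11.96, 12.05 and 12.18 in whole brain (−1.28 ± 0.13, adjusted p = 1.31e-06), without overlap. Rgs5 is in this group through a probe set (1420940_x_at, −0.57, adjusted p = 0.0294) whose call was lost without supernatant 14 (−0.39, adjusted p = 0.136), supernatant 16 (−0.42, 0.117), or the undisturbed whole brains 23 (−0.50, 0.0573) and 25 (−0.53, 0.0534).

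All higher were, among others, Gnao1, the G protein alpha subunit abundant in neurons (median 0.75 over 3), Ptar1 (0.90 over 4), Slc1a2 and Sox10. Slc1a2, the main glutamate transporter of astrocytes, read 12.90, 12.89, 12.75 and 12.94 in the supernatants and 12.33, 12.44 and 12.48 in whole brain by 1459014_at, a difference of 0.45 ± 0.10 (adjusted p = 0.00167), and its 5 probe sets lay between 0.28 and 0.60. The smallest of them (1433094_at, adjusted p = 0.0415) lost its call when 1 of 8 arrays was left out (0.25 to 0.29, adjusted p 0.0540 to 0.0973), and none of the 5 passed in a fit of all 24 arrays. Sox10, a transcription factor of oligodendrocytes, had 3 probe sets from 0.42 to 0.76, of which 1451689_a_at (adjusted p = 0.0416) lost its call when 1 of 9 arrays was left out (0.35 to 0.44, adjusted p 0.0510 to 0.0963), and none passed in the 24-array fit. All kept were the ribosomal proteins Rps28 (0.11 to 0.13 over 3) and Rpl41 (−0.20 to −0.06 over 4), the nuclear poly(A)-binding protein Pabpn1 (−0.04 to 0.22 over 4), the translation factor subunit Eif3h and Samm50, which sorts proteins into the outer mitochondrial membrane. With quantile normalization, Rps28 by 1451101_a_at and Pabpn1 by 1422849_a_at were called higher, each by 0.35 (limma, adjusted p = 0.0120 and 0.0139).

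The 10 kept genes with the highest whole-brain level came from several cell types and compartments. Malat1, a nuclear-speckle long noncoding RNA, read 14.33, 14.12, 14.06 and 14.17 in the supernatants and 13.83, 13.92 and 14.02 in whole brain, a difference of 0.23 ± 0.10 (adjusted p = 0.0808) that did not pass, with each supernatant above the highest whole brain. Snap25, a fusion protein of synaptic vesicles, read 13.58, 13.43, 13.32 and 13.63 in the supernatants and 13.53, 13.71 and 13.78 in whole brain (−0.20 ± 0.11, adjusted p = 0.148). Tuba4a, an alpha tubulin, read 13.08, 13.38, 13.27 and 13.38 in the supernatants and 13.28, 13.40 and 13.45 in whole brain (−0.10 ± 0.10, adjusted p = 0.470). Apart from Malat1 and Ywhae, a 14-3-3 adaptor (difference 0.20), the supernatants of these genes overlapped whole brain. The others were Actb, cytoplasmic actin, Meg3 by 1428764_at, the mitochondrially encoded ND5, Pcp4, a calmodulin regulator of Purkinje cells, the chaperone Hspa8 and the respiratory subunit Ndufb7, with differences from −0.15 to 0.00.

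Of 48 lists, 34 had more members lower than higher, or 29 after quantile normalization and 38 in the 24-array fit. Lists differ in level. Among all genes 24.2% were lower and 19.2% higher at a mean of 6 to 8, and 42.3% and 20.0% at 8 to 10. At 10 and over these were 45.7% and 20.4%. The counts of each list are to be read beside these shares. Among glial lists, astrocytes and oligodendrocytes (median levels 9.51 and 9.99) had more losses than gains, with 52.6% and 29.4% lower. Microglia and oligodendrocyte precursors (median levels 6.48 and 6.69) had as many of each, with 26.3% and 22.2% lower. The precursors had 2 lower and 2 higher of 9 (median −0.04). The part of level in this contrast was not tested. Of 19 astrocyte genes 10 were lower, 2 higher and 5 kept (median −0.33), and 6 lower and 3 higher after quantile normalization (median −0.16). Only 2 were lower and 0 higher in the 24-array fit, and the median was −0.12 with the mean of all probe sets of a gene. Over all 51 of their probe sets, 20 were lower and 14 higher, and 5 genes went both ways. Slc1a3, the glutamate transporter of radial and Bergmann glia, read 8.54, 8.91, 8.23 and 8.76 in the supernatants and 9.48, 9.93 and 9.99 in whole brain (−1.25 ± 0.13, adjusted p = 1.55e-06). Gja1 by 1415800_at read 10.11, 10.62, 10.68 and 10.33 in the supernatants and 11.29, 11.42 and 11.51 in whole brain (−0.99 ± 0.12, adjusted p = 5.54e-06). Both were without overlap. Aldh1l1, a folate enzyme used as an astrocyte marker, differed by −0.93 ± 0.13 (adjusted p = 2.62e-05), and Slc4a4, a bicarbonate transporter, was higher by 0.84 ± 0.14 (adjusted p = 0.000182). In the 24-array fit these last calls were lost (adjusted p 0.120 and 0.205). S100b, a calcium-binding protein, and Mlc1, a membrane protein of astrocyte endfeet, were kept (−0.21 and −0.08).

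Of 17 oligodendrocyte genes 5 were lower, 1 higher and 7 kept (median −0.26, or −0.11 after quantile normalization), and 3 were lower and 0 higher in the 24-array fit. Over all 38 of their probe sets, 11 were lower and 5 higher, and 2 genes went both ways. Mbp, myelin basic protein, whose mRNA is also carried into the sheath, read 11.53, 11.82, 12.22 and 11.67 in the supernatants and 12.93, 12.99 and 13.13 in whole brain by 1433532_a_at (−1.19 ± 0.12, adjusted p = 1.05e-06). Other Mbp probe sets read differently. The difference was −1.14 by 1436201_x_at, −0.46 with overlap by 1419646_a_at, and 0.56 by 1425263_a_at, which was called higher (adjusted p = 0.00718). Probe sets 1451961_a_at and 1425264_s_at were kept (0.15 and 0.01). Ugt8a, which makes galactocerebroside for myelin, read 7.66, 6.69, 6.49 and 7.45 in the supernatants and 8.05, 8.25 and 8.59 in whole brain (−1.22 ± 0.18, adjusted p = 5.57e-05). Mbp by 1433532_a_at and Ugt8a did not overlap whole brain, as with the Mobp probe set read out above. Mal, a raft protein of myelin, went the other way: 10.90, 10.99, 11.52 and 10.96 in the supernatants and 10.33, 10.51 and 10.74 in whole brain (0.58 ± 0.13, adjusted p = 0.00208, and 0.168 in the 24-array fit). Apod, a lipid carrier, read 11.04, 11.17, 12.16 and 11.14 in the supernatants and 11.33, 11.43 and 11.56 in whole brain and was kept at −0.07, with supernatant 15 above all whole brains. Without supernatant 15 it differed by −0.33 (adjusted p = 0.0206). Car2, carbonic anhydrase, differed by −0.26 (adjusted p = 0.0622), and by −0.33 without supernatant 16 (adjusted p = 0.0335).

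Microglia divided evenly: of 19 genes 5 were lower, 5 higher and 6 kept (median 0.13), and 2 were lower and 1 higher in the 24-array fit. The median was 0.06 with the mean of all probe sets of a gene, and −0.04 over genes with a mean of at least 6. Ctss, a lysosomal protease, read 8.30, 8.65, 8.72 and 8.61 in the supernatants and 9.79, 9.98 and 10.27 in whole brain (−1.42 ± 0.11, adjusted p = 9.64e-08), without overlap. Csf1r, the receptor on which microglia depend, differed by −0.98 ± 0.21 (adjusted p = 0.00124), and Aif1, an actin-bundling protein, by −0.64 ± 0.13 (adjusted p = 0.000999), a call lost in the 24-array fit (adjusted p = 0.172). Fcer1g, the Fc receptor gamma chain, C1qc of complement and the fractalkine receptor Cx3cr1 were higher, by 0.58, 0.57 and 0.47, and Siglech and C1qa were kept.

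Of 16 pan-neuronal genes 10 were lower, 2 higher and 4 kept, with a median of −0.63 (−0.41 after quantile normalization, 11 lower and 2 higher). The 24-array fit had 5 lower and 0 higher, and the mean of all probe sets of a gene gave a median of −0.36. Elavl4, an RNA-binding protein of neurons, read 7.02, 7.54, 7.60 and 7.50 in the supernatants and 8.63, 8.78 and 8.96 in whole brain (−1.37 ± 0.12, adjusted p = 3.00e-07). Rbfox3, the NeuN antigen and a splicing factor, read 8.37, 8.67, 8.82 and 8.15 in the supernatants and 9.34, 9.61 and 9.91 in whole brain (−1.11 ± 0.14, adjusted p = 1.03e-05). Nefm and Nefh, the middle and heavy neurofilament subunits, and Tubb3, neuronal tubulin, differed by −0.97, −0.85 and −0.83, while the light subunit Nefl was kept at 12.71, 12.77, 12.18 and 12.96 in the supernatants and 12.49, 12.60 and 12.77 in whole brain. Elavl3, a relative of Elavl4, and Syt1, the calcium sensor of release, were higher by 0.56 and 0.37. Over all 34 probe sets 15 were lower and 6 higher, and 4 genes went both ways.

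Regional neuron lists were mixed. Forebrain excitatory genes had 6 of 14 lower and 5 higher (4 and 0 in the 24-array fit), with Tbr1, a transcription factor of deep cortex, at 6.68, 7.30, 6.96 and 7.33 in the supernatants and 8.26, 8.37 and 8.58 in whole brain (−1.32 ± 0.13, adjusted p = 5.64e-07) and Arpp21, a phosphoprotein of cAMP signalling, at 11.01, 10.89, 10.55 and 11.28 in the supernatants and 9.80, 9.96 and 10.15 in whole brain (0.98 ± 0.13, adjusted p = 1.45e-05). Of 15 interneuron genes 6 were lower and 2 higher (5 and 0 in that fit). Gad2, which makes GABA, read 9.84, 9.81, 9.73 and 10.21 in the supernatants and 11.03, 11.16 and 11.41 in whole brain (−1.30 ± 0.11, adjusted p = 1.95e-07). Slc32a1, which loads GABA into vesicles, the calcium buffer Pvalb and the peptide Vip differed by −1.24, −1.03 and −1.44, and the peptide Npy was kept. Striatal genes had 3 of 13 lower and 3 higher (1 and 3 after quantile normalization, 1 and 0 in the 24-array fit): Tac1, the substance P precursor, differed by −1.31 ± 0.13 (adjusted p = 8.19e-07), and Rasd2, a striatal small GTPase, by 1.04 ± 0.13 (adjusted p = 7.99e-06). Of 12 genes of monoamine and cholinergic neurons 3 were lower and 6 higher (1 and 2 in that fit, median 0.29), at list means of 5.49 to 5.75 against 5.46 to 5.62, near background. In the 24-array fit the calls of Arpp21 and Rasd2 were lost (adjusted p 0.124 and 0.0630).

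**Figure D4:**
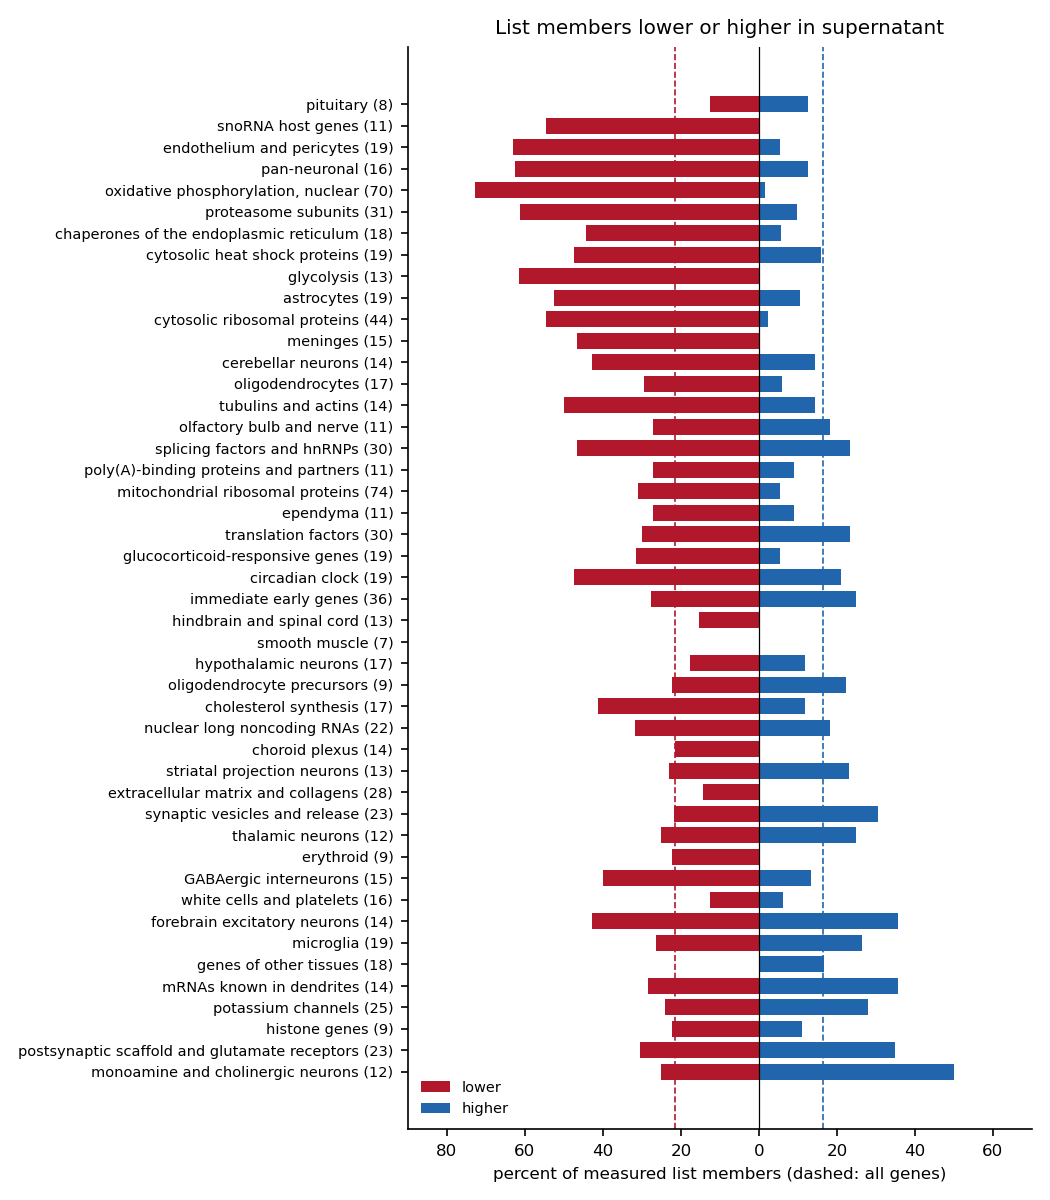
Percent of the measured members of each gene list called lower (bars to the left) and higher (bars to the right) in the supernatants, 1 probe set per gene, with the number of members in parentheses and dashed lines at the shares over all 18193 genes, 21.6% lower and 16.5% higher. Oxidative phosphorylation, endothelium and pericytes, pan-neuronal genes, glycolysis and the proteasome have from 61.3% to 72.9% of their members lower. The dashed lines are not matched for level, and of genes with a mean of 10 and over 45.7% were lower.

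Many nuclear-encoded mRNAs of energy metabolism were lower, beside 45.7% of all genes with a mean of 10 and over. Of 70 nuclear genes of oxidative phosphorylation 51 were lower, 1 higher and 9 kept (median −0.55), and 43 lower and 2 higher after quantile normalization (median −0.37). Of the 70, 29 were lower and 0 higher in the 24-array fit. Of all 149 probe sets 98 were lower and 5 higher. Atp5b, the catalytic beta subunit of ATP synthase, read 9.56, 9.04, 9.28 and 9.08 in the supernatants and 10.88, 11.19 and 11.27 in whole brain (−1.90 ± 0.12, adjusted p = 1.54e-08). Ndufa1 of complex I read 9.27, 9.90, 9.90 and 9.56 in the supernatants and 10.99, 11.16 and 11.27 in whole brain (−1.49 ± 0.13, adjusted p = 1.94e-07). Cox6c of cytochrome oxidase read 11.28, 11.53, 11.78 and 11.62 in the supernatants and 12.74, 12.83 and 12.95 in whole brain (−1.29 ± 0.11, adjusted p = 2.17e-07). No supernatant overlapped whole brain in these 3 subunits. Cox7a2 differed by −1.27 ± 0.12 (adjusted p = 5.64e-07). Ndufa5 and Ndufb7, further complex I subunits, were kept (−0.17 and −0.06), as was the mitochondrially encoded ND5 at 13.16, 13.18, 12.77 and 13.15 in the supernatants and 13.03, 13.20 and 13.30 in whole brain.

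Of 13 glycolysis genes 8 were lower, 0 higher and 3 kept (median −0.39), and 5 lower after quantile normalization (median −0.19). Only 2 were lower in the 24-array fit. Pgk1, phosphoglycerate kinase, read 10.25, 10.79, 10.81 and 10.30 in the supernatants and 11.49, 11.67 and 11.77 in whole brain (−1.09 ± 0.12, adjusted p = 3.26e-06). Tpi1, triosephosphate isomerase, differed by −0.57 ± 0.13 (adjusted p = 0.00155) in the listed probe set and by −0.38 after quantile normalization. Pkm, pyruvate kinase, was kept at 11.14, 11.08, 11.29 and 11.23 in the supernatants and 11.07, 11.29 and 11.34 in whole brain.

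Of 31 proteasome subunits 19 were lower, 3 higher and 4 kept (median −0.52), with no gene called both ways among its probe sets (30 of 67 lower, 10 higher). With the pull-downs in the fit, 9 genes were lower and 0 higher. Psmd6 of the regulatory cap read 7.48, 7.08, 7.03 and 7.37 in the supernatants and 8.63, 8.76 and 8.98 in whole brain (−1.55 ± 0.12, adjusted p = 6.23e-08). Psmb7, a catalytic subunit, read 8.53, 9.28, 9.63 and 8.26 in the supernatants and 10.15, 10.33 and 10.47 in whole brain (−1.38 ± 0.19, adjusted p = 2.13e-05). Psmd7, another cap subunit, was kept (0.25).

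Of 44 cytosolic ribosomal proteins 24 were lower, 1 higher and 16 kept (median −0.32), 16 lower and 4 higher after quantile normalization (median −0.16), and 10 lower and 1 higher in the 24-array fit. Rps3a1 read 10.35, 10.85, 10.36 and 10.64 in the supernatants and 11.63, 11.67 and 11.85 in whole brain (−1.15 ± 0.12, adjusted p = 8.86e-07) and Rpl8 differed by −0.95 ± 0.11 (adjusted p = 4.43e-06), both without overlap. Rps28 and Rps29 were kept at 0.13 and −0.17. Many ribosomal protein genes have near-identical processed copies in the genome, which these probes may also detect. Of 74 mitochondrial ribosomal proteins 23 were lower, 4 higher and 33 kept (median −0.16, or −0.06 after quantile normalization), and 10 lower and 2 higher in the 24-array fit. Of 30 translation factors 9 (30%) were lower, 7 (23.3%) higher and 10 kept, at a median level of 10.04. Of all genes at 10 and over, 45.7% were lower and 20.4% higher. After quantile normalization 8 factors were lower and 11 higher, and in the 24-array fit 4 and 0. The elongation factor Eef1a1 was kept at 11.38, 11.69, 11.72 and 11.59 in the supernatants and 11.38, 11.57 and 11.75 in whole brain. Larp1, which binds the start of ribosomal protein mRNAs, read 6.12, 6.50, 6.45 and 6.30 in the supernatants and 7.82, 8.01 and 8.34 in whole brain (−1.74 ± 0.12, adjusted p = 4.38e-08), and Paip2b, an inhibitor of poly(A)-binding protein, differed by −1.31 ± 0.11 (adjusted p = 2.11e-07).

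Of 18 chaperones of the endoplasmic reticulum 8 were lower, 1 higher and 5 kept (median −0.41), 8 lower and 3 higher after quantile normalization, and 5 lower and 0 higher in the 24-array fit. Hspa5, the main chaperone of that compartment, read 9.46, 10.58, 10.17 and 9.65 in the supernatants and 10.78, 11.20 and 11.55 in whole brain (−1.18 ± 0.17, adjusted p = 3.05e-05). Dnajb9, its cofactor, differed by −1.14 ± 0.12 (adjusted p = 1.00e-06), and Canx, calnexin, was kept (0.15). Of 19 heat shock proteins 9 were lower, 3 higher and 2 kept (median −0.40, or −0.21 with the mean of all probe sets of a gene), and 3 were lower and 0 higher in the 24-array fit. Hspd1, the mitochondrial chaperonin, read 9.53, 10.21, 9.99 and 10.06 in the supernatants and 11.08, 11.18 and 11.24 in whole brain (−1.24 ± 0.12, adjusted p = 7.11e-07), without overlap. Hspa8 of the cytosol was kept at 12.86, 13.23, 13.04 and 12.96 in the supernatants and 12.93, 13.08 and 13.22 in whole brain.

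Synaptic lists had calls in both directions on the 12 arrays. Of 23 genes of synaptic vesicles and release 5 were lower, 7 higher and 7 kept (median 0.05), of 23 postsynaptic scaffold and glutamate receptor genes 7 were lower, 8 higher and 1 kept (median 0.28), and of 25 potassium channels 6 were lower, 7 higher and 8 kept (median 0.20). As shares, the vesicle list (median level 10.3) had 21.7% lower and 30.4% higher. The postsynaptic list (9.40) had 30.4% and 34.8%, and the channels (8.76) 24% and 28%. Of all genes, 42.3% were lower and 20.0% higher at 8 to 10, and 45.7% and 20.4% at 10 and over. These lists thus had fewer losses and more gains than all genes of like level, which was not tested. After quantile normalization the postsynaptic list had 6 lower and 11 higher and the channels 5 and 13. In the 24-array fit more were lower than higher in each list: 3 and 0 of the vesicle genes, 4 and 0 of the postsynaptic genes, and 4 and 1 of the channels. With the mean of all probe sets of a gene the vesicle median was −0.07 and the postsynaptic median 0.02. The postsynaptic median was 0.16 without supernatant 15. Synj1, a phosphatase that uncoats synaptic vesicles, read 10.00, 10.13, 10.20 and 9.98 in the supernatants and 11.56, 11.69 and 11.83 in whole brain (−1.62 ± 0.10, adjusted p = 1.47e-08). Rab3a, a vesicle GTPase, read 10.99, 10.66, 11.45 and 10.85 in the supernatants and 9.96, 10.05 and 10.28 in whole brain (0.92 ± 0.13, adjusted p = 3.44e-05, and 0.182 in the 24-array fit). Syp, synaptophysin, was kept (−0.17). Pclo, a scaffold of the release site, differed by −1.28 ± 0.12 (adjusted p = 5.61e-07).

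Dlg3, a postsynaptic scaffold of the PSD-95 family, read 8.31, 8.75, 8.72 and 8.81 in the supernatants and 9.81, 9.96 and 10.07 in whole brain (−1.29 ± 0.11, adjusted p = 2.89e-07). Dlgap2, which binds such scaffolds, read 10.10, 10.39, 10.20 and 10.48 in the supernatants and 9.09, 9.32 and 9.38 in whole brain (1.02 ± 0.11, adjusted p = 2.34e-06, and 0.0528 in the 24-array fit). Neither overlapped whole brain. The channel subunits Kcnj3, of the inward rectifier opened by G proteins, and Kcnc1, of fast-spiking neurons, differed by −1.49 ± 0.12 (adjusted p = 1.42e-07) and −1.41 ± 0.15 (adjusted p = 1.57e-06). Of 14 mRNAs known in dendrites 4 were lower, 5 higher and 4 kept (median 0.16), 3 lower and 7 higher after quantile normalization, and 3 lower and 1 higher in the 24-array fit.

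Nuclear RNAs went both ways. Of 22 nuclear long noncoding RNAs 7 were lower, 4 higher and 5 kept (median −0.02), 5 lower and 6 higher after quantile normalization, and 3 lower and 1 higher in the 24-array fit. Neat1, the scaffold of paraspeckles, read 7.44, 7.40, 8.07 and 7.48 in the supernatants and 8.87, 9.17 and 9.47 in whole brain (−1.57 ± 0.13, adjusted p = 1.32e-07), without overlap, while Malat1 of nuclear speckles was kept, as above. Host genes of small nucleolar RNAs, whose spliced transcripts are decayed during translation, had more losses than gains: 6 of 11 were lower, 0 higher and 3 kept (6 and 1 after quantile normalization, 6 and 0 in the 24-array fit). Their median was −0.85, and −0.29 with the mean of all probe sets of a gene. Snhg1 read 6.09, 6.35, 7.46 and 6.38 in the supernatants and 8.15, 8.29 and 8.44 in whole brain (−1.73 ± 0.18, adjusted p = 1.62e-06). Snhg8 read 9.36, 9.98, 9.76 and 9.90 in the supernatants and 10.55, 10.73 and 10.88 in whole brain (−0.97 ± 0.13, adjusted p = 1.30e-05). Snhg10 and Snhg5 differed by −1.19 and −0.94, and Gas5 was kept at 10.75, 11.08, 10.95 and 10.91 in the supernatants and 10.62, 10.73 and 10.84 in whole brain. Of 30 splicing factors 14 were lower, 7 higher and 7 kept, 10 and 8 after quantile normalization, and 7 and 0 in the 24-array fit.

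Of 36 probe sets annotated to histone genes, whose main mRNAs lack a poly(A) tail, 4 were lower, 11 higher and 13 kept (median 0.21), beside 19.5% lower and 17.5% higher over all probe sets. With 1 probe set each, 9 histone genes of the list had 2 lower and 1 higher (median 0.21, or −0.39 over genes with a mean of at least 6). H1f4, a linker histone, read 9.72, 8.61, 9.22 and 8.85 in the supernatants and 7.38, 7.75 and 8.56 in whole brain (1.27 ± 0.19, adjusted p = 5.21e-05). H2bc21, a core histone whose gene also gives polyadenylated mRNA, read 7.08, 7.90, 7.63 and 7.24 in the supernatants and 8.09, 8.45 and 8.87 in whole brain (−1.03 ± 0.16, adjusted p = 6.78e-05). Neither overlapped whole brain, and 18 of the 36 probe sets are annotated to several genes. Of these 18, 5 were higher and 1 lower. Probe set 1428014_at, of H4 genes, read 7.00, 6.76, 7.24 and 5.95 in the supernatants and 4.01, 4.29 and 5.20 in whole brain. Its difference of 2.34 ± 0.23 (adjusted p = 6.42e-07) was larger than the gains named by the rule above. Probe set 1422948_s_at, of the same genes, differed by 1.53 ± 0.14 (adjusted p = 3.68e-07), and neither H4 probe set overlapped whole brain.

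Homer1 transcripts were present in the supernatants, and its probe sets went both ways. The 6 probe sets read from 7.23 to 10.40 there. Probe set 1421768_a_at read 10.04, 10.40, 9.82 and 10.01 in the supernatants and 8.81, 9.24 and 9.59 in whole brain (0.82 ± 0.12, adjusted p = 5.51e-05), without overlap and higher. Probe set 1425671_at read 9.31, 10.33, 8.96 and 9.46 in the supernatants and 7.95, 8.74 and 9.20 in whole brain (0.86 ± 0.19, adjusted p = 0.00150). Both calls were lost in the 24-array fit (adjusted p 0.160 and 0.276). Probe set 1436387_at went the other way: 7.23, 8.91, 8.62 and 7.60 in the supernatants and 8.36, 9.17 and 9.59 in whole brain (−0.98 ± 0.23, adjusted p = 0.00305). Probe sets 1437363_at and 1439662_at were kept (0.02 and 0.09), and 1425710_a_at differed by 0.48 (adjusted p = 0.0978) and by 0.83 without supernatant 15 (adjusted p = 0.000435). No source used here says which Homer1 form each probe set detects.

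Homer1 differed between the whole-brain groups as well, with means of 9.49 in sleep-deprived and 8.65 in undisturbed whole brain for 1436387_at and 9.07 and 8.24 for 1425671_at, so each group was also used alone. Probe set 1436387_at was lower than sleep-deprived whole brain by 1.40 (adjusted p = 0.000702), and differed from undisturbed whole brain by −0.56 (adjusted p = 0.134). Probe set 1425671_at was higher than undisturbed whole brain by 1.28, and differed from sleep-deprived whole brain by 0.44 (adjusted p = 0.126). The supernatants hold both sleep conditions in a proportion the labels do not settle.

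The same caution holds for activity-regulated genes. Of 36 immediate early genes 10 were lower, 9 higher and 10 kept (median −0.08). These are 27.8% lower and 25% higher at a median level of 7.35, near the 24.2% and 19.2% of all genes at 6 to 8. In the 24-array fit 5 were lower and 2 higher, and 9 genes went both ways among their probe sets. Arc, a capsid-like protein that removes AMPA receptors from synapses, read 7.48, 8.56, 8.66 and 8.09 in the supernatants and 5.69, 6.81 and 7.47 in whole brain (1.47 ± 0.19, adjusted p = 1.14e-05), and was higher than sleep-deprived whole brain by 0.85 (adjusted p = 0.00610) and than undisturbed whole brain by 2.08. Fosl2, an AP-1 subunit, read 5.75, 7.25, 7.61 and 6.74 in the supernatants and 7.87, 8.42 and 9.08 in whole brain (−1.63 ± 0.23, adjusted p = 3.50e-05). Nr4a2, an orphan nuclear receptor, differed by −1.13 ± 0.20 (adjusted p = 0.000317). Egr3, a zinc-finger transcription factor, differed by −1.04 ± 0.22 (adjusted p = 0.00149), but from undisturbed whole brain by −0.68 (adjusted p = 0.0570). Jun, an AP-1 subunit, and the phosphatase Dusp1 were kept at 0.19 and 0.16.

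Of 19 clock genes 9 were lower, 4 higher and 3 kept, and 3 lower and 1 higher in the 24-array fit. That is 47.4% lower and 21.1% higher at a median level of 7.77, beside 24.2% and 19.2% of all genes at 6 to 8. The period gene Per2 read 7.75, 9.03, 9.06 and 7.83 in the supernatants and 6.64, 7.25 and 7.76 in whole brain (1.15 ± 0.22, adjusted p = 0.000420), with 13 and 16 near the highest whole brain and 14 and 15 above it. Its relative Per1 differed by −0.91 ± 0.19 (adjusted p = 0.000968) (0.0740 in the 24-array fit), and the repressor Cry1 read 5.95, 6.62, 6.47 and 6.04 in the supernatants and 7.12, 7.45 and 7.75 in whole brain (−1.17 ± 0.14, adjusted p = 4.44e-06). Of 19 glucocorticoid-responsive genes 6 (31.6%) were lower, 1 (5.26%) higher and 8 kept, at a median level of 7.35. After quantile normalization 6 were lower and 3 higher, and in the 24-array fit 4 and 0. Sgk1, a kinase induced by glucocorticoids, read 7.97, 9.46, 9.51 and 7.76 in the supernatants and 8.92, 9.53 and 10.56 in whole brain (−0.94 ± 0.27, adjusted p = 0.0115). It was lower than sleep-deprived whole brain by 1.52 and differed from undisturbed whole brain by −0.36 (adjusted p = 0.423). Its call was lost without supernatant 13 (−0.71, adjusted p = 0.0680) or 16 (−0.64, 0.0600).

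The supernatants differed from each other more than whole brains did. Supernatant 15 read high in Gh, growth hormone of the anterior pituitary: 1460613_x_at read 7.96, 6.21, 13.06 and 7.96 in the supernatants and 6.93, 12.27 and 13.28 in whole brain, so that both extracts spanned most of the same range. The difference of −2.85 ± 1.08 (adjusted p = 0.0461) lost its call when any 1 of 10 arrays was left out (−2.99 to −1.99, adjusted p 0.0510 to 0.188). It kept the call without sleep-deprived whole brain 19 or supernatant 15. Besides, 2 further Gh probe sets (1456595_x_at, −2.75, adjusted p = 0.0485, and 1460310_a_at, −2.37, adjusted p = 0.0497) likewise lost the call when 1 array was left out, at differences from −2.90 and from −2.40 upward. Without supernatant 15, 1456595_x_at differed by −4.15 (adjusted p = 0.00143). Gh 1437522_x_at (−2.59, adjusted p = 0.0640) and Prl, prolactin (−1.56, adjusted p = 0.250), passed without supernatant 15, at −3.99 and −2.89 (adjusted p 0.00212 and 0.0158), and the Gh probe set also without sleep-deprived whole brain 19 (−3.20, adjusted p = 0.0118). Pituitary genes, 8 in the list, averaged 5.33 to 7.50 in supernatants and 5.26 to 7.81 in whole brain, a wide range in both extracts, and the part of pituitary tissue in these values was not tested. Endothelial and meningeal lists were also highest in 15, by 0.48 and 0.31 (median deviation of the members from the mean of the supernatants).

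Supernatant 16 read low in cerebellar genes, with a median deviation of −0.79 over 14 genes, against 0.10 to 0.15 in the other 3. Of these genes 6 were lower, 2 higher and 1 kept (4 lower and 3 higher after quantile normalization, 2 and 0 in the 24-array fit), and the median of −0.28 was −0.08 without supernatant 16. Zic1, a granule cell transcription factor, read 10.08, 10.55, 10.54 and 9.29 in the supernatants and 10.88, 11.02 and 11.21 in whole brain (−0.92 ± 0.18, adjusted p = 0.000699). Cbln1, a synapse organiser released by granule cells, read 10.64, 9.83, 10.28 and 9.46 in the supernatants and 10.76, 10.98 and 11.27 in whole brain (−0.94 ± 0.17, adjusted p = 0.000273). Ppp1r17, a phosphatase inhibitor of Purkinje cells, read 7.72, 8.03, 7.74 and 6.32 in the supernatants and 8.11, 8.32 and 8.59 in whole brain (−0.89 ± 0.22, adjusted p = 0.00462), and differed by −0.51 without 16, and its call was lost in the 24-array fit (adjusted p = 0.0823). Each of these had its lowest value in 16.

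Car8, a Purkinje cell protein that binds the inositol trisphosphate receptor, read 10.25, 10.42, 10.13 and 8.51 in the supernatants and 9.20, 9.46 and 10.07 in whole brain by 1424958_at, a difference of 0.25 that became 0.69 without 16 (adjusted p = 0.00668), and by 1427482_a_at it differed by −0.86 (adjusted p = 0.00933), or −0.44 without 16 (adjusted p = 0.0113), a call lost in the 24-array fit (adjusted p = 0.135). By 1457904_at it differed by −0.87 (adjusted p = 0.0532), and passed without sleep-deprived whole brain 18 (−0.96), supernatant 13 (−1.25) or supernatant 14 (−1.11). Gabra6, the GABA-A receptor subunit of granule cells, was lower by 1417121_at (−1.38 ± 0.25, adjusted p = 0.000278), and differed by 0.36 by 1451706_a_at, or 0.84 without 16 (adjusted p = 0.000601). Glucocorticoid-responsive genes were low in 13 and 16 (median deviations −0.48 and −0.37) and high in 14 and 15 (0.57 and 0.55).

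**Figure D5:**
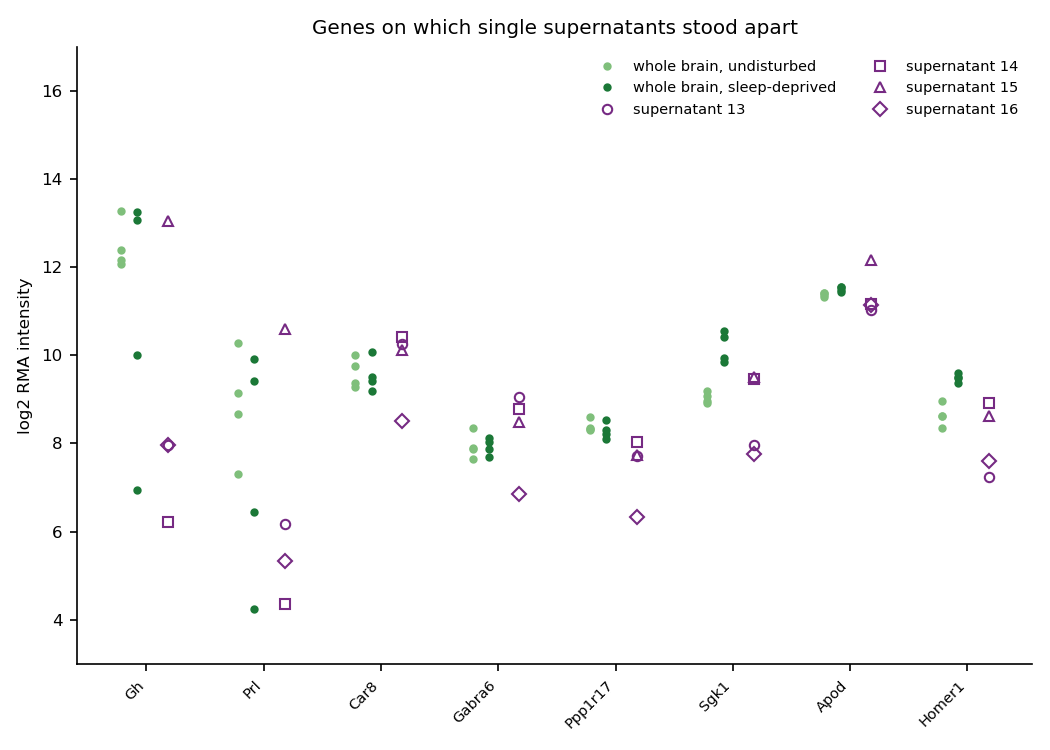
Log2 RMA intensity (y axis) of 8 genes (x axis, 1 probe set each) on each of the 12 arrays, with whole brains as filled points and the 4 supernatants as open symbols. Supernatant 15 stands apart in Gh, Prl and Apod, supernatant 16 in Car8, Gabra6 and Ppp1r17, and 13 and 16 lie below 14 and 15 in Sgk1 and Homer1 (1436387_at).

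Shares of calls differed by features of the array as well as of genes. Those by kind and by symbol were taken over all levels and were not matched for level. Of probe sets with a mean under 6, 8.14% were lower, and of those at 10 and over 49.8%. Of probe sets of the kind _s_at, which match several transcripts, 34.8% were lower and 13.5% higher, and of the kind _x_at, which may cross-hybridise, 32.4% and 9.38%, against 17.3% and 17.3% of the kind _at. Of 9160 probe sets with no gene symbol 12.4% were lower and 14.1% higher, but they held larger losses than any single gene: 1446017_at read 4.42, 3.95, 4.40 and 4.61 in supernatants against 7.98, 9.12 and 10.18 in whole brain (−4.69 ± 0.31, adjusted p = 1.75e-08), and 1420465_s_at differed by −4.62 ± 0.23. Among probe sets at 7 or more in the higher group, those numbered from 1415, 1433 and 1434 had 52.5%, 50.4% and 51.2% lower and 11.3%, 13.8% and 12.4% higher, and those from 1421, 1425 and 1431 had 15.6%, 20.9% and 15.4% lower and 46.6%, 44.2% and 45.7% higher. No source used here says what the first digits of a probe set's number stand for.

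Among genes measured at 7 or more, 130 of 262 on the X chromosome (49.6%) were lower and 45 (17.2%) higher, against 36.9% and 20.9% of 7808 autosomal genes. Of 147 long noncoding RNA genes 28.6% were lower and 24.5% higher. Of 1346 genes with the shortest span in the genome (up to 7.68 kb) 40.0% were lower and 18.6% higher, and of the same number with the longest (from 101 kb) 32.8% and 25.9%. Across 8075 genes, which are not independent replicates, the difference had a Spearman correlation of 0.06 with span, and across 6552 genes of −0.01 with the GC content of the promoter.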

How the data were processed

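Transcripts of mouse brain were measured on 24 biotin-labelled Affymetrix expression arrays, of which 12 were used. The authors deposited log2 intensities of probe sets, and the submitters' processing notes name RMA, which corrects background, normalizes quantiles and summarizes probes, and the affy package. Versions, and whether all extracts were normalized in 1 batch, are not given in the sources used here. No further scaling, offset or filter was applied. Of 45101 probe sets, 64 controls were left out. The platform annotation gave 1 gene symbol for 34945, several for 932 and none for 9160. Genome spans and chromosomes came from RefSeq tables and promoters from the GRCm38.p6 build. No positions are printed, since a probe set was named by symbol alone.

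The linear model of limma 3.58.1 (lmFit, then eBayes, under R 4.3.3) had 3 groups of 4: supernatant, sleep-deprived and undisturbed whole brain. The contrast was supernatant minus the equal-weight mean of both whole-brain groups, two-sided, with Benjamini-Hochberg adjustment over 45037 probe sets and a threshold of 0.05. Array measures were compared by exact permutation (495 splits) in scipy 1.17.1, 7 of them planned and 5 added after seeing the data. In the gene table, probe sets of the kinds _at and _a_at were taken first, then the highest mean. Named genes were the 12 largest differences each way (past the threshold, 1 symbol, kinds _at or _a_at, no overlap, at least 7 in the higher group), up to 4 called and 2 kept members of each list, the 10 kept genes with the highest level and all Homer1 probe sets. The other probe sets of Gja1, Flt1, Meg3, Rgs5, Ttr, Clu, Slc1a2, Sox10, Car8, Gabra6, Gh, Prl, Pgk1 and Mbp, the H4 probe sets and members of lists given by their difference were chosen after their values were seen. The members and lists were chosen with earlier results of these data known, so counts of lists are descriptions, with no test of a list. On simulated data with these levels, 87 of 100 probe sets changed by 1 log2 unit and 100 of 100 changed by 2 were recovered, with 9 false calls. The simulated noise was independent, with the same SD in all groups and no shift between arrays. It therefore cannot show how many of the calls in the real data are false.

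Alternatives were other array scaling, a filter on low values, a fit of all 24 arrays, whole brain as 1 group, sleep condition as a covariate, array weights, trended and robust eBayes, a narrower margin for kept genes, the mean of a gene's probe sets, and leaving out each array. Labels do not say whether supernatants came from separate mice, so p-values measure the spread between these samples. Arrays have no read depth, and their number limits the precision. Protein features of the genes were not analysed here.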

Additional observations from a re-analysis of the deposited data

Results flagged for a closer look

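In groups of 4 arrays, 1 array stood apart from the other 3 by Dixon's criterion in 29 of 576 tests over 192 measures. Chance gives about 1 in 20, so the number of flags was near that of chance. The flags below are descriptions, and any single one may be due to chance. Of these, 14 were in supernatants. Supernatant 15 stood high for Bcas1 (10.37, against 9.92 to 10.00 in the others), Mgp (7.83, against 7.08 to 7.21), Mal (11.52, against 10.90 to 10.99), Apod (12.16, against 11.04 to 11.17), Neat1 (8.07, against 7.40 to 7.48) and Meg3 1436057_at (9.26, against 8.52 to 8.56), and low for the mitochondrially encoded ND5 (12.77, against 13.15 to 13.18). Supernatant 13 stood high for the 18S control (14.42, against 14.23 to 14.26) and low for Atp6ap2 (7.72), Mlc1 (8.78) and Elavl4 (7.02). Supernatant 16 stood low for Car8 by 1424958_at (8.51, against 10.13 to 10.42) and by 1427482_a_at (7.09, against 8.64 to 8.87), and high for Car2 (10.98, against 10.69 to 10.74).

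Among undisturbed whole brains, 22 stood apart for the TrpnX control (3.86) and Gad2 (11.03), 23 for Alas2 (6.12), 24 for Mobp (12.57) and Jakmip1 (6.97), and 25 for Ttc7b (9.20), Ppp1r17 (8.59) and Meg3 1436057_at (9.25). Among sleep-deprived whole brains, 18 stood apart for Ptprn2 (5.67), 19 for Car2 (10.78) and Larp1 (8.34), 20 for Hspa8 (13.09), and 21 for Cox7a2 (11.81), Tpi1 (11.15) and Slc1a2 1459014_at (12.33).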

How the results depend on the processing

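No paired analysis was possible because the supernatants and the whole brains share no replicate number. A fit of all 24 arrays, in which the spread of the pull-downs enters, gave 4006 probe sets lower and 907 higher, 2370 lower and 206 higher than each whole-brain group, and 2995 kept. A filter on a mean of at least 6 left 6960 kept, an interval within 0.3 left 2407 kept, and quantile normalization gave 649 probe sets at least 2-fold higher. Leaving out 1 array gave 8151 to 8597 probe sets lower, 6147 to 7927 higher, 5821 to 6647 lower and 3333 to 4676 higher than each whole-brain group, 15315 to 17364 kept, 1630 to 2140 at least 2-fold lower and 290 to 458 at least 2-fold higher, and 32 to 37 lists with more members lower. The SD of an array's values differed by −0.069 to −0.031, and passed the test without undisturbed whole brain 22. Medians of 20 of 48 lists changed sign under some setting, 17 of them with a reported median within 0.2 of 0. The others were histone genes (0.21, −0.39 with the filter), cold-inducible RNA-binding proteins (−0.21, 0.012 with the sleep covariate by title) and poly(A)-binding proteins (−0.22, 0.020 with the mean of a gene's probe sets), and the cause was not tested. The erythroid median of 0.06 was −1.89 with the filter, which leaves out the 7 of 9 members with a mean under 6. Of 180 reported probe sets, 133 passed the test, none changed direction while called, and 107 combinations of these with 21 settings lost the call, 33 of them in the 24-array fit. With quantile normalization, 12 reported probe sets gained a call. Among them Gas5, Psmd7, Jun, Canx, Dusp1 and Eef1a1, kept above, were higher by 0.24 to 0.40. Snap25, also kept above, differed by −0.29. Adjusted p for all of these was 0.00202 to 0.0477 (limma).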

Other observations

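Some of the larger differences belonged to probe sets without a gene symbol and varied among whole brains as well. Probe set 1447329_at read 6.26, 5.82, 6.51 and 5.75 in supernatants 13, 14, 15 and 16 and 9.28, 10.46 and 11.47 (lowest, median and highest) in whole brain, a difference of −4.32 ± 0.27 (SE, limma). Probe set 1447059_at read 6.08, 6.18, 6.02 and 6.27 against 9.15, 10.24 and 11.04, a difference of −3.99 ± 0.23. On the pull-down arrays, which lie outside the comparison, 1447059_at ranged from 5.73 to 13.19 and 1446017_at from 4.55 to 12.85. The largest gain without a symbol was 1456849_at, at 8.21, 7.17, 7.60 and 8.13 against 5.99, 6.09 and 6.40 (1.63 ± 0.17).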
